A study of Homo sapiens with 22 samples.

Results

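Replication-dependent histone genes are the intron-poor genes that supply the bulk of new H1, H2A, H2B, H3 and H4 protein. They were taken here as the RefSeq protein-coding genes on chromosomes 1 and 6 whose symbol is H1-1 to H1-6 or begins with H2AC, H2BC, H3C or H4C followed by a digit. The rule gave 68 members of 20037 protein-coding genes: 6 for the linker histone H1, 17 for H2A, 18 for H2B, 13 for H3 and 14 for H4. Of these, 55 lie on chromosome 6 and 13 on chromosome 1. The rule used names and positions, not measured values.

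These genes are switched on as cells enter S phase, when newly copied DNA has to be packed into nucleosomes. NPAT, a coactivator recruited at histone locus bodies, acts on many of their promoters, and OCT1 (POU2F1) binds the octamer of H2B promoters. Their mRNAs end in a stem-loop bound by SLBP in place of a poly(A) tail. RNA polymerase II (Pol II) transcribes all of these genes, and H3K4me3 marks the promoters of transcribed genes.

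The cells were THP-1, a human monocytic leukaemia line, infected with a lentivirus that carried either a control hairpin (sh-control) or a hairpin against QKI5 (sh-QKI5), the nuclear isoform of the RNA-binding protein Quaking. The series held 22 samples: in each condition 2 samples each of ChIP for H3K4me3, ChIP for Pol II, CLIP for QKI5 and its input, besides 2 control and 4 knockdown ChIP inputs. CLIP recovers RNA bound by a protein, here QKI5. Each of the 6 deposited peak lists was made from both replicates of a condition, so the lists carry no replicate error: the differences below compare 1 list with 1 list, with no test. The labels name 1 hairpin per condition. The series design text instead describes the control cells as untreated; the sample labels were followed, so whether the controls carried a virus rests on those labels.

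The H3K4me3 lists held 21953 control and 21358 knockdown peaks, the Pol II lists 33370 and 35094, and the CLIP lists 7337 and 669. Every ChIP peak had the same score, so width was the only measure of size, and the depth behind the lists is unknown. Pol II peaks covered 56.7 Mb in control and 60.4 Mb in knockdown, and H3K4me3 peaks 62.8 and 60.6 Mb. Of 15 monocytic marker genes, 14 had a peak of each mark within 1 kb in each ChIP list. The T cell markers stood at 1 to 2 of 5 in the lists, B cell at 2 to 4 of 5, erythroid at 1 to 2 of 5, and epithelial and fibroblast at 0 to 2 of 4 each. The lists give no level of QKI5 itself, so they do not check the knockdown.

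The promoters differ by histone type, and a few are printed to show this. Of the 68 members, 63 had an entry in the RefSeq promoter table (GRCh38.p14), and motifs were searched in the 250 bases before each start. The octamer, ATTTGCAT on either strand, was found in 14 of 18 H2B and 11 of 16 H2A promoters, 1 of 11 H3 promoters, and in none of 12 H4 and 6 H1 promoters. The H3 promoter is that of H3C4, whose RefSeq entry starts where H2AC7 starts. The octamer was in 26 of 63 member promoters (41.3%) against 1.65% of all 15843 promoters. The H2A and H2B genes mostly lie head to head and share a window, so a match is often counted from both genes.

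The first lines below give the 120 bases before the start of H2BC3 and H2BC6, which had both marks in both conditions, and of H2BC1, the testis gene, which had no peak. Capitals mark the octamer, CCAAT and TATAA. They are chr6:26043714-26043833 (minus strand), chr6:26183641-26183760 (plus) and chr6:25726657-25726776 (plus). All lie upstream of the start.
H2BC3: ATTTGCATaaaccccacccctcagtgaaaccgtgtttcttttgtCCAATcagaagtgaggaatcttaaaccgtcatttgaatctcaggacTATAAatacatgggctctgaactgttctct
H2BC6: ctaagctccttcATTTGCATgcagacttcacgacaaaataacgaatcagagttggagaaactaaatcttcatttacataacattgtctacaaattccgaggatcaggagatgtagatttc
H2BC1: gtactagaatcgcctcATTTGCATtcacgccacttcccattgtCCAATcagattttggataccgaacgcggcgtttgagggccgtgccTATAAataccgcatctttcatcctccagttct
The testis gene with no peak thus carries the same 3 motifs as H2BC3. At H2BC6 a CCAAT at -137 and a TATAA at -189, counted from the start, lie beyond the printed bases.

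The stretch between the starts of the divergent genes H2BC4 and H2AC6 shows how a pair shares its control region. It spans 245 bases, chr6:26123927-26124171 on the plus strand, and reads towards H2AC6. Some capitals are motifs of the other strand: TTATA stands for the TATAA box, ATTGG for the CCAAT box and ATGCAAAT for the octamer.
H2BC4-H2AC6: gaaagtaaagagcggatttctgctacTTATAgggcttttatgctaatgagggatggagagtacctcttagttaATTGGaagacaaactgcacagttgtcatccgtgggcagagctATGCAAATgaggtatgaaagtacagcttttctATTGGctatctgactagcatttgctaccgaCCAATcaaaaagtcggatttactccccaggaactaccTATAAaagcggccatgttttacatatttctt
A TATAA box stands near each end, and the octamer lies between them.

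H4 promoters lack the octamer and mostly lack CCAAT, which was found in 3 of 12 of them and in every H1, H2A, H2B and H3 promoter of the table. H4C2, H4C6, H4C11 and H4C12 are printed because their Pol II peaks were narrower in the knockdown list, and H4C7 because its Pol II peak was listed in control alone. Capitals mark the TATAA box, the CCAAT box and GGTTNTCN, a loose form of the H4 subtype site GGTTTTCA. The stretches are chr6:26027284-26027403 (minus), chr6:26240273-26240392 (plus), chr6:27823972-27824091 (plus), chr6:27831561-27831680 (minus) and chr6:26246997-26247116 (minus).
H4C2: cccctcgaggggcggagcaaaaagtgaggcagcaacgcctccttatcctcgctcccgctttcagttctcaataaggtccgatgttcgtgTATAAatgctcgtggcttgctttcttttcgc
H4C6: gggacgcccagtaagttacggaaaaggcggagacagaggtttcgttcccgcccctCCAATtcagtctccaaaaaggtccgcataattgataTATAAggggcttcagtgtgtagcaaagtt
H4C11: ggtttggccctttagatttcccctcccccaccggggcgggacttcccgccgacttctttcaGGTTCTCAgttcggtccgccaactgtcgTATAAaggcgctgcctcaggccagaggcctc
H4C12: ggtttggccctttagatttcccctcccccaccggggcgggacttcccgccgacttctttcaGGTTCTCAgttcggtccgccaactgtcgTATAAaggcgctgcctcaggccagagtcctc
H4C7: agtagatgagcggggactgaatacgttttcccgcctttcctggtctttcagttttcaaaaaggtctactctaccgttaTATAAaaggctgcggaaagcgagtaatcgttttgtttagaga
H4C11 and H4C12 are nearly the same over this stretch and carry the same site.

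A TATAA beginning 33 to 27 bases before the start was found in 47 of 63 member promoters (74.6%) against 5.23% of all promoters. CCAAT on either strand was in 54 of 63 (85.7%) against 34.5%. The GC box GGGCGG ran the other way, with 17 of 63 against 56.0%, and the median GC content of the windows was 42.8% against 62.4%. The E2F motifs TTTCGCG or TTTGGCG were in 12 of 63 against 3.53%. GGTTTTCA was in 4 of 12 H4 promoters and in no other member's, against 0.682% of all promoters. GGTTNTCN, which includes it, was in 6 of 12 H4 promoters and 11 of 63 members (17.5%) against 8.53%. These matches describe letters in the windows and not bound sites.

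Both marks lay at most of the members in both conditions. H3K4me3 peaks within 1 kb were listed at 59 of 68 members (86.8%) in control and at 59 in knockdown, against 72.7% and 72.9% of all protein-coding genes. Pol II peaks were listed at 60 (88.2%) in control and 59 (86.8%) in knockdown, against 65.1% and 67.3%. The same 59 members (86.8%) had both marks in both conditions, against 61.2% of all genes. No member had H3K4me3 in a single list, where 0.659% of all genes had it in control alone and 0.898% in knockdown alone. Pol II was found in control alone at 1 member, against 1.65% of all genes, and in knockdown alone at 0, against 3.88%.

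By type, both marks were found in both conditions at 4 of 6 H1, 16 of 17 H2A, 17 of 18 H2B, 10 of 13 H3 and 12 of 14 H4 genes. The peaks are wide beside the genes: 52 of 68 members lay wholly inside a Pol II peak in each list, against 3.01% of all genes in control and 3.17% in knockdown. The median RefSeq span of a member was 494.5 bp against 24115 bp for all genes, and 8 members had a span over 1 kb.

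The 8 members without any peak were H4C14, H3C14 and H3C15 on chromosome 1 and H2AC1, H2BC1, H1-1, H1-6 and H3C6 on chromosome 6. H2AC1, H2BC1 and H1-6 encode the testis forms of H2A, H2B and H1. The pair H2AC1 and H2BC1 stood alone, with the nearest peak of any list at least 187993 bp away. H1-6 lay closer to a peak, at 2518 and 2544 bp from H3K4me3 and 1604 and 1901 bp from Pol II in control and knockdown. H1-1, at the edge of the large cluster, was 2473 and 2313 bp from H3K4me3 and 2154 and 2274 bp from Pol II. H3C6 was 3849 to 5036 bp from the nearest peak in the 4 lists.

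Near-identical copies on chromosome 1 limit what can be said there. The promoter entries of H3C14 and H3C15 were identical over 296 of 296 aligned bases, those of H2AC18 and H2AC19 over 299 of 299, and those of H4C14 and H4C15 over 300 of 300. Reads from such copies cannot be told apart, and how they were handled is not given in the sources used here. H2AC18, H2AC19 and H4C15 were counted through a peak between the copies that covered none of their starts. It measured 7670 bp in control and 7378 bp in knockdown for H3K4me3, and 7292 and 7360 bp for Pol II. H3C14 and H3C15 lay 1861 to 2178 bp outside that same peak.

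**Figure D1:**
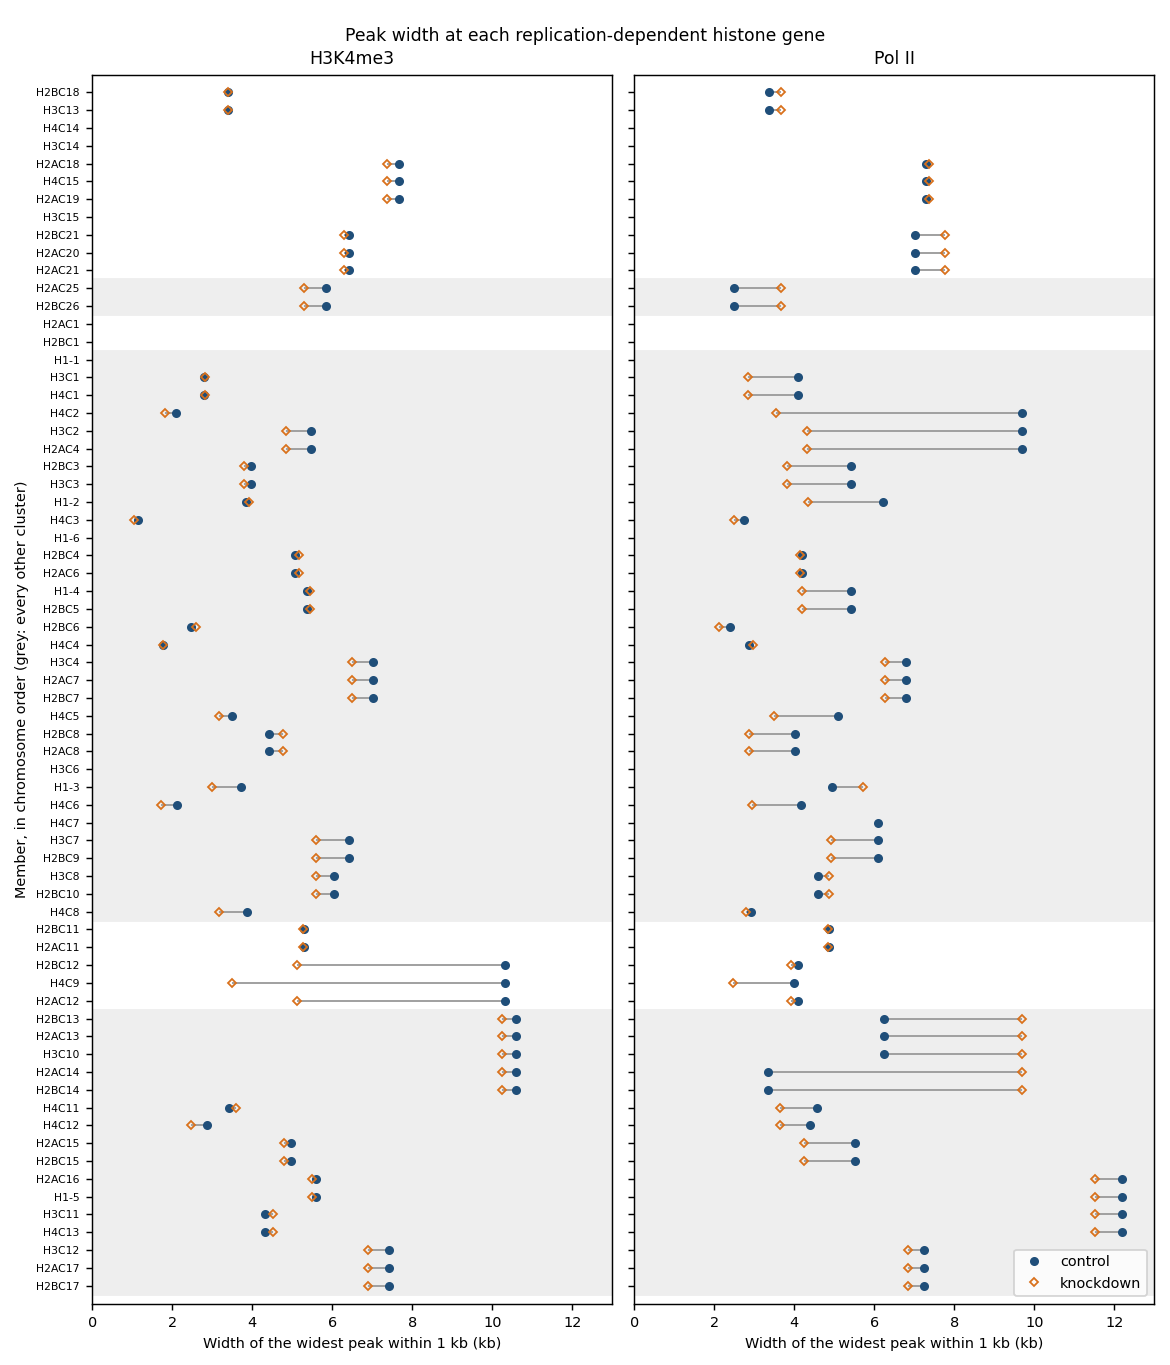
Width (kb) of the widest H3K4me3 (left) and Pol II (right) peak within 1 kb of each member, in chromosome order. Circles are the control list and diamonds the knockdown list, each made from both replicates. Members under the same peak have the same value, and rows without symbols had no peak. Most Pol II diamonds on chromosome 6 lie left of their circles, while all 10 members with a peak on chromosome 1 lie right.

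Pol II peaks over the histone genes were mostly narrower in the QKI5 knockdown list, whereas Pol II peaks over all genes were mostly wider. Of the 59 members with a Pol II peak in both lists, 40 had a narrower peak in knockdown and 19 a wider one, a share of 67.8% narrower against 42.2% of 12708 genes. The median width at members was 5408 bp in control and 4318 bp in knockdown, against 2279.5 and 2442.5 bp at all genes. The median log2 ratio of knockdown to control width was -0.08 at members and 0.08 at all genes, whose quartiles were -0.23 and 0.43. In a bulk list of this kind, fewer cells in S phase and less polymerase per gene cannot be told apart.

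Wide control peaks were narrower more often at other genes as well. Among the 5963 genes whose control Pol II peak was at least as wide as that of the narrowest member, 2404 bp, 54.5% were narrower in knockdown. That floor is near the all-gene median of 2279.5 bp, while the members' median was 5408 bp. The comparison thus does not match the members for width. Members that share a peak repeat its value: the 59 members shared 32 distinct pairs of peaks, of which 23 were narrower and 9 wider. A log2 ratio beyond 0.32 in size was seen at 18 members towards narrower and 7 towards wider Pol II peaks. Over all genes those shares ran the other way, with 19.8% narrower and 31.7% wider.

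H3K4me3 changed less in width. Of the 59 members with a peak, 44 were narrower in knockdown (74.6%), against 57.7% of 14433 genes. The median log2 ratio was -0.06 at members and -0.04 at all genes, and the median width at members was 5467 bp in control and 5159 bp in knockdown. A log2 ratio beyond 0.32 in size was seen at 3 members, all narrower and all under a single control peak that was split in knockdown. Over all genes 10.4% were narrower and 6.78% wider by that much.

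The chromosome 6 and chromosome 1 members differed in direction. On chromosome 6, 40 of 49 members had a narrower Pol II peak in knockdown (81.6%), against 46.5% of the genes on that chromosome. On chromosome 1, 0 of 10 did, against 42.8%, and these 10 members shared 4 distinct pairs of peaks. H2BC21, H2AC20 and H2AC21 shared a Pol II peak 7026 bp wide in control and 7776 bp wide in knockdown. H2BC18 and H3C13 shared a peak of 3376 and 3669 bp. H2AC25 and H2BC26, an isolated pair, shared a peak of 2481 and 3675 bp. H3K4me3 went the other way at 8 of these 10 members. At H2AC25 and H2BC26 its peak was 5842 bp wide in control and 5305 bp wide in knockdown. The difference between the chromosomes was not tested.

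**Figure D2:**
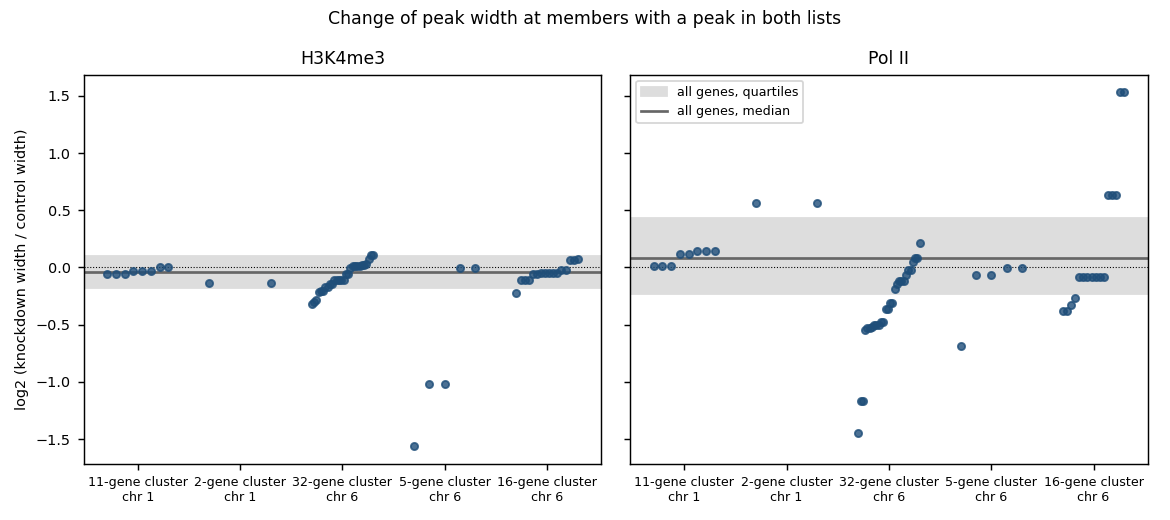
Log2 ratio of knockdown to control peak width at each member with a peak in both lists, by cluster and sorted within it, for H3K4me3 (left) and Pol II (right). Grey bands and lines are the quartiles and median of all genes. In the 32-gene cluster 24 of 28 Pol II points lie below 0, and the 2 at 1.53 are H2AC14 and H2BC14 under a peak that joined its neighbour in knockdown.

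Within chromosome 6 the lowest ratios were in the 32-gene cluster. There 24 of 28 members had a narrower Pol II peak in knockdown, with a median log2 ratio of -0.34, a fold of 0.791. All 5 members of the 5-gene cluster and 11 of 16 in the 16-gene cluster were narrower, with medians of -0.06 and -0.08. The length of DNA under Pol II peaks, within each cluster extended by 1 kb, was 87.7 kb in control and 71.0 kb in knockdown over the 32-gene cluster, which is 80.9% of control. Over the 16-gene cluster knockdown stood at 89.9% of control and over the 5-gene cluster at 86.3%. Over the 11-gene cluster of chromosome 1 it was 17.7 and 18.6 kb. In all clusters together Pol II cover was 163.9 kb in control and 142.6 kb in knockdown (87.0%), and H3K4me3 cover 150.1 and 141.6 kb (94.3%). Most of this difference lay away from the genes: over the members and 1 kb to each side alone, Pol II cover was 121.3 and 116.8 kb (96.3%) and H3K4me3 cover 121.8 and 118.7 kb (97.5%).

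**Figure D3:**
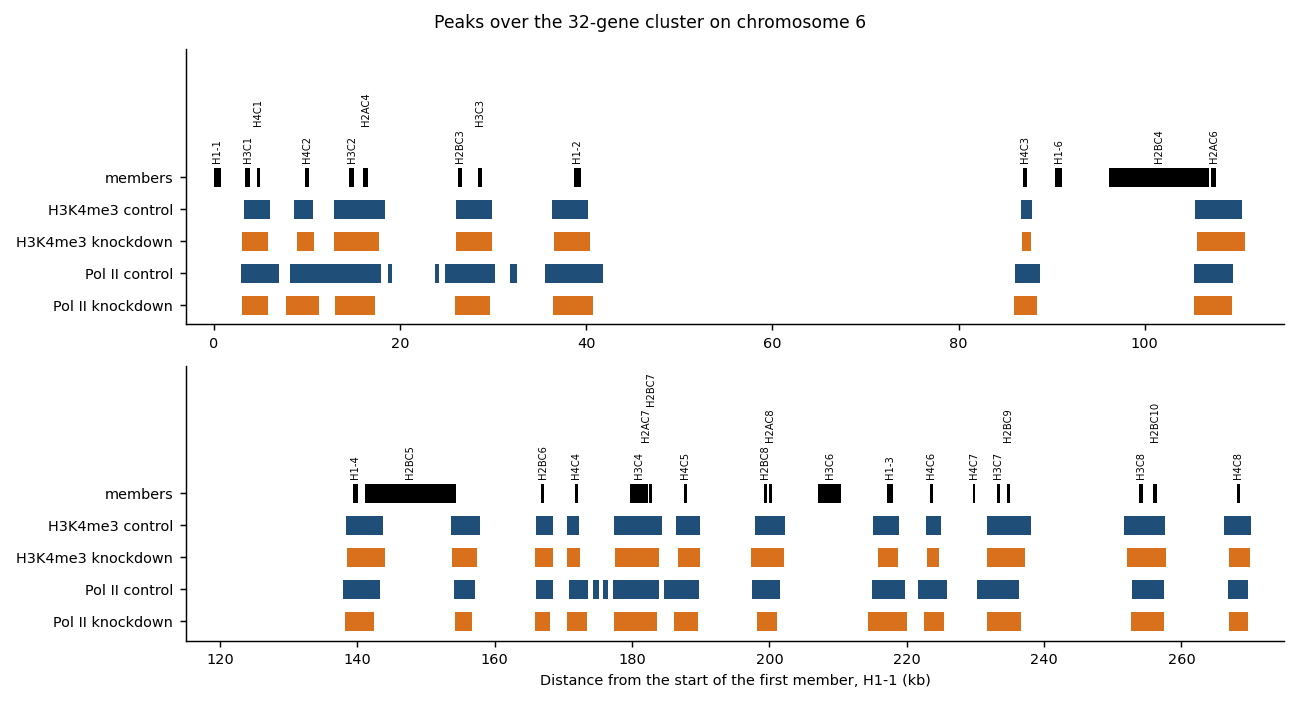
Members (black) and peaks of the 4 lists (blue, control; orange, knockdown) over the 32-gene cluster of chromosome 6, by distance in kb from the first member, H1-1. The control Pol II peak over H4C2, H3C2 and H2AC4 is listed as 2 peaks in knockdown, and 5 short control Pol II peaks near no member have no counterpart.

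H4 genes, many of which stand alone under their peak, had the lowest median ratio of the 5 types. Of 12 H4 genes with Pol II in both lists, 10 were narrower in knockdown (83.3%, against 42.2% of all genes), with a median log2 ratio of -0.30. H4C2 had a Pol II peak 9696 bp wide in control and 3551 bp wide in knockdown, 36.6% of control, the lowest ratio of any member. Its H3K4me3 peak was 2105 and 1819 bp wide. H4C9 had Pol II peaks of 3981 and 2467 bp, and H4C5 of 5103 and 3492 bp. H3K4me3 at H4C5 was 3503 and 3179 bp wide, while at H4C9 it was 10327 and 3500 bp wide. H4C4 and H4C15 were the 2 H4 genes with a wider Pol II peak in knockdown, at 2876 and 2976 bp for H4C4. H4C15 was counted through the peak between the chromosome 1 copies, which did not cover its start.

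H4C7 was the single member with Pol II in 1 list. The control peak, chr6:26247280-26253374, measured 6095 bp and reached within 284 bp of H4C7 without overlapping it. It also covered H3C7 and H2BC9, an H3 and an H2B gene that lie head to head. In knockdown the peak over H3C7 and H2BC9 was chr6:26248788-26253701, 4914 bp wide, and ended 1792 bp from H4C7. H3K4me3 was 1703 and 1705 bp away in control and knockdown. The call at H4C7 is thus a shift of a shared peak's edge.

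Edges could be placed against the start for 6 of the 7 H4 genes that were alone under their Pol II peak in both lists. H4C4, H4C5, H4C6, H4C8, H4C11 and H4C12 all had the upstream edge closer to the start in knockdown. The median distance from the edge to the start was 1707 bp in control and 1035 bp in knockdown. At H4C11 it was 1908 and 921 bp, at H4C12 1735 and 748 bp, at H4C6 1679 and 799 bp, and at H4C5 2921 and 1511 bp. The shift was smaller at H4C4, with 1557 and 1407 bp, and at H4C8, with 1225 and 1149 bp. The downstream edge moved in at 3 of the 6 and out at the other 3. H4C3, the remaining gene, has no entry in the promoter table and so no start or direction here. Its Pol II peak was 34 bp longer in knockdown at the end with the lower coordinate and 297 bp shorter at the other. H4C11 and H4C12 have near-identical promoters, and how reads that match both were handled is not known here. Of the 9 members of any type with a start and alone under their Pol II peak, 7 had the upstream edge closer in knockdown. At the other 2 it was farther: H1-3, with 1866 and 2051 bp, and H2BC6, with 675 and 808 bp. H3K4me3 edges moved on the other side. Of 6 H4 genes with a start and alone under that mark, the downstream edge was closer in knockdown at all 6. The upstream edge was closer at 3 and farther at 3. These genes included H4C2 and not H4C12. Of 9 such members of any type, the H3K4me3 downstream edge was closer at 8 and the upstream edge at 4. Edges were not measured over all genes.

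**Figure D4:**
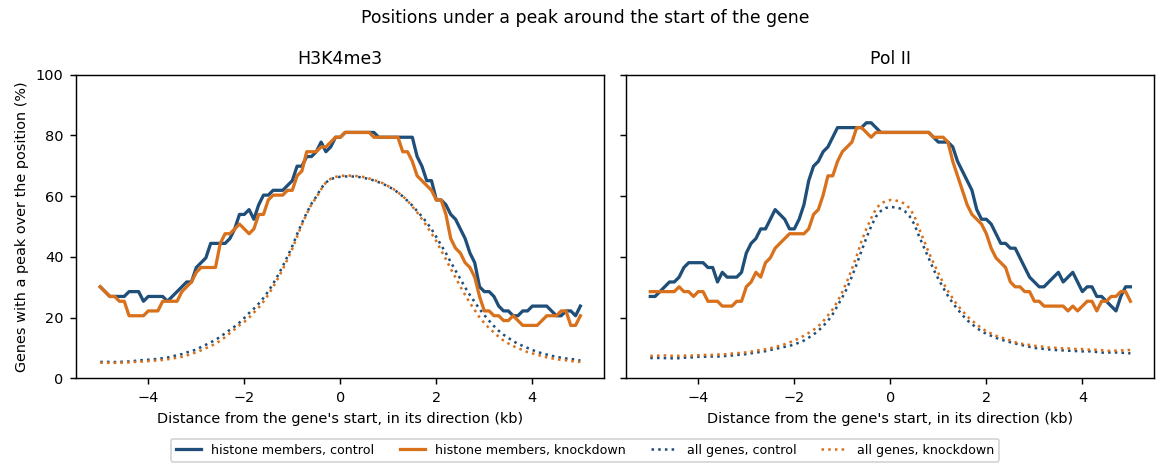
Share of genes (%) with a peak over each position from 5 kb before to 5 kb after the gene's start, for H3K4me3 (left) and Pol II (right). Solid lines are the 63 members with a start in the promoter table and dotted lines all 15843 genes. Pol II over members in knockdown lies under control over most of the upstream side, while over all genes it lies slightly above. Over members it also lies under control over part of the downstream side.

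Around the start itself the share of members covered was the same in both lists. A Pol II peak covered the start of 81.0% of members in control and in knockdown, and of 56.4% and 58.7% of all genes. At 1 kb upstream it covered 82.5% and 74.6% of members, and 26.7% and 28.5% of all genes. At 3 kb upstream the members stood at 41.3% in control and 30.2% in knockdown. On the other side, at 3 kb downstream, they stood at 31.7% and 25.4%. Among the 12 H4 genes, the position 1 kb upstream was covered at 10 in control (83.3%) and 6 in knockdown (50.0%), and the start at 9 in both. Any peak over a position was counted, also a neighbour's. In control that of H3C7 and H2BC9 lay upstream of H4C7. Over all 51 members with a Pol II peak over the start, the upstream edge was closer in knockdown at 38 and the downstream edge at 32. Edges were measured at members only, so these counts have no share over all genes beside them.

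H2A and H2B genes form 11 of the 12 head-to-head pairs, with starts 194 to 248 bp apart. The other is H3C7 with H2BC9, whose starts are 979 bp apart. The median over all 12 pairs was 238 bp. In each of the 4 lists 11 of the 12 pairs had both starts under 1 peak, the exception being H2AC1 and H2BC1. Of 16 H2A genes with Pol II, 9 were narrower in knockdown (56.3%), and of 17 H2B genes 11 were (64.7%). The share was 42.2% of all genes and 54.5% of those with a control peak of at least 2404 bp. The median log2 ratio was -0.01 for H2A and -0.06 for H2B. H2BC8 and H2AC8 shared a Pol II peak that was 4010 bp wide in control and 2880 bp wide in knockdown. Their H3K4me3 peak was 4415 and 4771 bp, the largest increase of that mark among members, a log2 ratio of 0.11. H2BC6, alone under its peaks, had Pol II widths of 2404 and 2107 bp and H3K4me3 widths of 2472 and 2595 bp.

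The 5 largest Pol II increases all came from joined peaks. H2BC13, H2AC13, H3C10, H2AC14 and H2BC14 lay under a single Pol II peak in knockdown, chr6:27806722-27816423, 9702 bp wide. In control the same genes lay under a 6244 bp peak over the first 3 and a 3353 bp peak over the other two, 601 bp apart. The log2 ratios of 0.64 and 1.53 therefore record the closing of that gap. A single H3K4me3 peak joined the same 5 genes in both lists and was 10587 bp wide in control and 10234 bp wide in knockdown.

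Splits gave the 3 largest decreases of each mark. The 9696 bp control Pol II peak chr6:26025283-26034978, over H4C2, H3C2 and H2AC4, was listed in knockdown as 3551 bp over H4C2 and 4318 bp over H3C2 and H2AC4, with 1685 bp between them. The log2 ratios were -1.45 at H4C2 and -1.17 at H3C2 and H2AC4. For H3K4me3, the 10327 bp control peak over H2BC12, H4C9 and H2AC12 became 3500 bp over H4C9 and 5107 bp over the H2A-H2B pair, 1652 bp apart. Their log2 ratios were -1.56 at H4C9 and -1.02 at H2BC12 and H2AC12. Without the members under split or joined peaks, an alternative chosen after seeing the data, 37 of 51 members had a narrower Pol II peak in knockdown. The same exclusion was not made over all genes, so this count has no matching share beside it.

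The remaining large H3K4me3 changes were smaller. H1-3, a linker histone gene, had H3K4me3 widths of 3729 and 2992 bp, and H4C6 of 2110 and 1711 bp. Increases after H2BC8 and H2AC8 were at H4C11, from 3418 to 3601 bp, and at H2BC6. H3C11 and H4C13 shared a peak 4320 bp wide in control and 4523 bp wide in knockdown.

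Few peaks joined many members. Peaks within 1 kb of a member numbered 34 in control and 35 in knockdown for each mark. For Pol II, 8 joined 3 or more members in control and 6 in knockdown. H2AC16, H1-5, H3C11 and H4C13, which encode 4 different histones, lay under the widest, chr6:27863110-27875297 in control, which measured 12188 bp there and 11513 bp in the knockdown list. H3K4me3 divided the same stretch: H2AC16 with H1-5 at 5590 and 5504 bp, and H3C11 with H4C13 at 4320 and 4523 bp.

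The H1 genes with peaks were H1-2, H1-3, H1-4 and H1-5. H1-2 had Pol II widths of 6226 and 4344 bp with H3K4me3 at 3857 and 3928 bp. H1-4 had Pol II widths of 5411 and 4198 bp, shared with H2BC5, and H3K4me3 at 5380 and 5437 bp. H1-3 ran the other way, with a Pol II peak 4936 bp wide in control and 5717 bp wide in knockdown, and its H3K4me3 peak was narrower. At H1-5 both marks were narrower in knockdown, with Pol II at 12188 and 11513 bp and H3K4me3 at 5590 and 5504 bp. The 2 marks thus differed in direction at H1-2, H1-3 and H1-4 and had the same direction at H1-5.

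Pol II peaks were closer in width to H3K4me3 peaks at the members than at all genes, and were still the narrower of the 2 marks at most members. The Pol II peak was the wider of the 2 marks at 26 of 59 members in control (44.1%) and 22 of 59 in knockdown (37.3%), against 17.5% and 20.2% of all genes. The median ratio of Pol II to H3K4me3 width was 0.977 and 0.965 at members and 0.565 and 0.616 at all genes. Among histone genes outside the rule, Pol II was wider at 7 of 12 control peaks (median ratio 1.07) and 3 of 13 knockdown peaks (0.838). Counts varied by type: the Pol II peak was wider at 9 of 12 H4 genes in both lists and at 4 of 4 and 3 of 4 H1 genes. For H2A it was wider at 5 and 3 of 16, for H2B at 4 and 3 of 17, and for H3 at 4 of 10 in both. The median log2 of that ratio for H4 was 0.58 in control and 0.35 in knockdown.

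QKI5 CLIP peaks were rare at these genes. Peaks assigned to members numbered 2 in control and 0 in knockdown, where 13.9% and 1.82% of all genes had a peak; 2 of 68 is 2.94%. The members are short beside other genes, and the part of length was not tested. The knockdown list held 669 peaks against 7337, so it was shorter over all genes.

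H2BC5, listed under its older name HIST1H2BD, had the CLIP peak chr6:26159254-26159326 on the plus strand, 1133 bp after the start of the gene. The authors' deposited table gives it 12 reads, -log10 p 9.61 and log2 enrichment over input 4.51. The list's median was 9 reads and a log2 enrichment of 5.92. The site lay under an H3K4me3 and a Pol II peak in both conditions. H2BC5 is among the members with a long RefSeq span.

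H2BC15, listed as HIST1H2BN, had the CLIP peak chr6:27855381-27855450 on the plus strand. The authors' deposited table gives it 10 reads, -log10 p 9.19 and log2 enrichment 5.25. This site lay 16271 bp beyond the end of the RefSeq gene and at least 7358 bp from any ChIP peak. By position it overlapped no member. The remaining control CLIP peak of the clusters lay in the 11-gene cluster of chromosome 1 under another name, RP11-196G18.22, at chr1:149848204-149848274 on the minus strand with 8 reads. It overlaps the long RefSeq span of H4C15. Counted by position in place of name there were thus also 2 control peaks, at H2BC5 and H4C15, and H2BC15 dropped out.

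Histone genes outside the rule gave a comparison. They include replacement variants such as H2AX, H2AZ1 and H3-3A, which are made outside S phase as well. Of 28 listed, 12 had Pol II in both lists, and 11 of these were narrower in knockdown (91.7%), against 42.2% of all genes. Their median log2 ratio was -0.25. H2AX, a DNA damage variant, had Pol II widths of 6918 and 5099 bp, and CENPA, the centromeric H3, of 4670 and 2727 bp. H3-3A had 7719 and 5590 bp. The exception, H3-7, had 880 and 887 bp. MACROH2A2 and H2BK1 had Pol II in knockdown alone, 752 and 501 bp wide, where 501 bp is the narrowest width in the lists. Narrower Pol II peaks in knockdown were thus also found at histone genes outside the rule. The control peaks of those 12 genes were wide, with a median of 6712 bp against 2279.5 bp at all genes. Wide control peaks were narrower more often at other genes as well, and the part of width was not tested.

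Of 48 genes that transcribe or process histone mRNA, 47 had Pol II in both lists and 26 of these were narrower in knockdown (55.3%). That stands beside 42.2% of all genes and 54.5% of those with a control peak of at least 2404 bp. The median control width of the 47 was 3405 bp. H3K4me3 was present at all 48 in both lists and narrower at 25 (52.1%), against 57.7% of all genes. LSM11, a subunit of the U7 snRNP that cleaves histone mRNA, had Pol II in knockdown alone, 754 bp wide. Of 18 histone chaperone genes, 8 had a narrower Pol II peak (44.4%), close to the share of all genes.

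QKI5 CLIP peaks were listed at 10 of the 48 in control, against 13.9% of all genes, with no test of the difference. NPAT had 4, SYMPK, a scaffold of the cleavage complex, 4, TENT4A 3, UPF1, which acts in histone mRNA decay, 2, and WDR33, XRN2 and SNRPD3 2 each. POU2F1, TENT4B and NCBP1 had 1 each. Among chaperones HIRA, which deposits H3.3, had 5, CHAF1A and MMS22L 2 each, and SSRP1 had 1. H2AX had a control CLIP peak of 57 reads and MACROH2A1 had 3. In knockdown SYMPK, NAP1L1 and H3-3B had 1 each.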

How the data were processed

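Peak lists came from ChIP for H3K4me3 and Pol II and from CLIP for QKI5; per the series design text each list used both replicates. Per the file headers or columns, the authors deposited ChIP peaks as positions with a constant score, and CLIP peaks with a -log10 p and a log2 enrichment over input. HOMER and GRCh38.p5 are named in the submitters' processing notes; the aligner and the peak caller's settings were not given in the sources used here. Gene positions and promoters came from RefSeq (GRCh38.p14), whose patches leave chromosome coordinates unchanged. The control group follows the sample labels, sh-control, and not the design text, which calls it untreated.

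A gene had a peak where one lay within 1 kb of its RefSeq span, and its value was the widest such peak. Clusters were runs of members with gaps of at most 200 kb. Named genes were those with a peak in a single list or none, the 5 largest width changes each way per mark, peaks joining 4 or more members, and genes with CLIP peaks; others were chosen after their values were seen. Members and lists were chosen with earlier results of these data known. The sets outside the rule came from hand-written lists. Overlaps, clusters and motif positions were tested on simulated data. Python 3.11.15 and pandas 2.3.3 were used. With 1 list per condition there were no tests; alternatives were another distance, another width rule and stricter thresholds.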

Additional observations from a re-analysis of the deposited data

How the results depend on the processing

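No paired analysis was possible because each deposited list pools both replicates, and for the same reason no replicate could be left out. Most alternatives kept the values within 1.5 times. Counting each shared peak once left 23 narrower H3K4me3 and 23 narrower Pol II pairs; counting only log2 ratios beyond 0.32 in size left 3 and 18. Pol II in control alone, at 1 member, became 0 with overlap of the gene itself, 0 within 5 kb, and 0 where absence was required within 5 kb. H3K4me3 in control alone became 1 with a distance of 5 kb. No member CLIP peak was left (0) at a -log10 p of at least 10. Added after seeing the data: chromosome 6 alone gave 40 narrower Pol II and 36 narrower H3K4me3 peaks, and widths relative to the median of all genes gave 44 and 36 of 59. The causes were not tested. Width depends on depth, which is unknown here.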

Other observations

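Besides the peaks at members, the control Pol II list held 7 peaks inside the clusters that lay near no member and no other RefSeq gene, and the knockdown list held 0. H3K4me3 had 0 in both. They were short, from 501 to 855 bp. In the 32-gene cluster they were chr6:26035713-26036213, chr6:26040776-26041276, chr6:26048871-26049588, chr6:26191406-26192260 and chr6:26192793-26193515. The others were chr6:27819779-27820279 and chr1:149877256-149878057. The 0 depends on which peaks count as at members, since H2BC18 and H2BC12 have long RefSeq spans. Within 1 kb of those spans, the knockdown list held 501 bp peaks at chr1:149786590-149787090 and chr6:27136974-27137474. The control list held one at chr6:27142983-27143483. None of these overlapped a peak of the other Pol II list. The share of all control Pol II peaks without a knockdown peak was not counted. The whole Pol II list was longer in knockdown, at 35094 peaks against 33370.

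Of 10 pseudogenes in the clusters, 7 lay within 1 kb of a Pol II peak in control and 6 in knockdown, and 7 had H3K4me3 in both. RPS10P1, a ribosomal protein pseudogene, was within 1 kb of the 5103 bp control Pol II peak of H4C5 and of none in knockdown. HFE, the hereditary haemochromatosis gene that lies within the 32-gene cluster, had no peak in any list. Among chaperone genes, chosen after their values were seen, CHAF1A had a control Pol II peak 7978 bp wide and a knockdown peak 15533 bp wide, and NAP1L1 had 8173 and 4130 bp.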
